A study of Mus musculus with 14 samples.

Results

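Genes of the Notch pathway were followed in cortical progenitors of the mouse embryo: the receptors Notch1, Notch2 and Notch3, the ligands Dll1, Dll3 and Jag1, the receptor-modifying enzyme Lfng, and the target genes Hes1, Hes5 and Hey1. Every probe set paired with exactly 1 of these symbols in the platform annotation was taken, which gave 17 of 45037 probe sets and 10 of 18193 gene symbols. Embryos of the CD1 strain received a DNA construct in the lateral ventricle at E14.5 by in utero electroporation, in which electric pulses drive the DNA into the cells lining the ventricle. The construct was either Fezf2GFP, which carries the transcription factor Fezf2 with green fluorescent protein, or the control CtrlGFP, and electroporated cells were purified by fluorescence-activated sorting. RNA was profiled on 14 Affymetrix arrays in 4 groups, with 3 arrays for each vector at 24 h and 4 for each vector at 48 h. Neither the promoter that drives the construct nor the number of embryos behind an array is stated in the labels, so p-values reflect only how far these arrays spread, which may in part be technical. The sorted cells are those that took up DNA and their progeny, and in such bulk RNA fewer cells of a type and less RNA per cell cannot be told apart.

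In Notch signalling, a Delta or Jagged ligand on one cell binds a Notch receptor on its neighbour, the receptor is cut, and its released intracellular part enters the nucleus and joins the DNA-binding protein RBPJ to switch on target genes. In the embryonic cortex the targets of the Hes and Hey families encode repressors that keep radial glia, the stem cells of the ventricular zone, undifferentiated, and they do so largely by repressing proneural genes. Proneural factors in turn switch on Delta ligands in cells that are about to become neurons. Values below are log2 expression, so that a difference of 1 is a doubling, and a probe set at or under 4 is called dim, since at such values signal and background are hard to separate.

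Of the receptor genes, Notch1 and Notch3 passed the test between times (limma, adjusted p under 0.05 over all genes tested), Notch2 did not, and none passed between vectors. Notch1 fell from 24 h to 48 h with both vectors, by 1.39 on the log2 scale in CtrlGFP and by 0.95 in Fezf2GFP, and Notch3 fell by 1.69 in CtrlGFP. Hey1 fell with both vectors, close to the threshold. No member passed the test between the vectors at either time. The lowest adjusted p among them was that of the ligand Jag1 at 24 h (0.0842), whose 3 Fezf2GFP arrays all lay below the 3 CtrlGFP arrays.

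**Figure D1:**
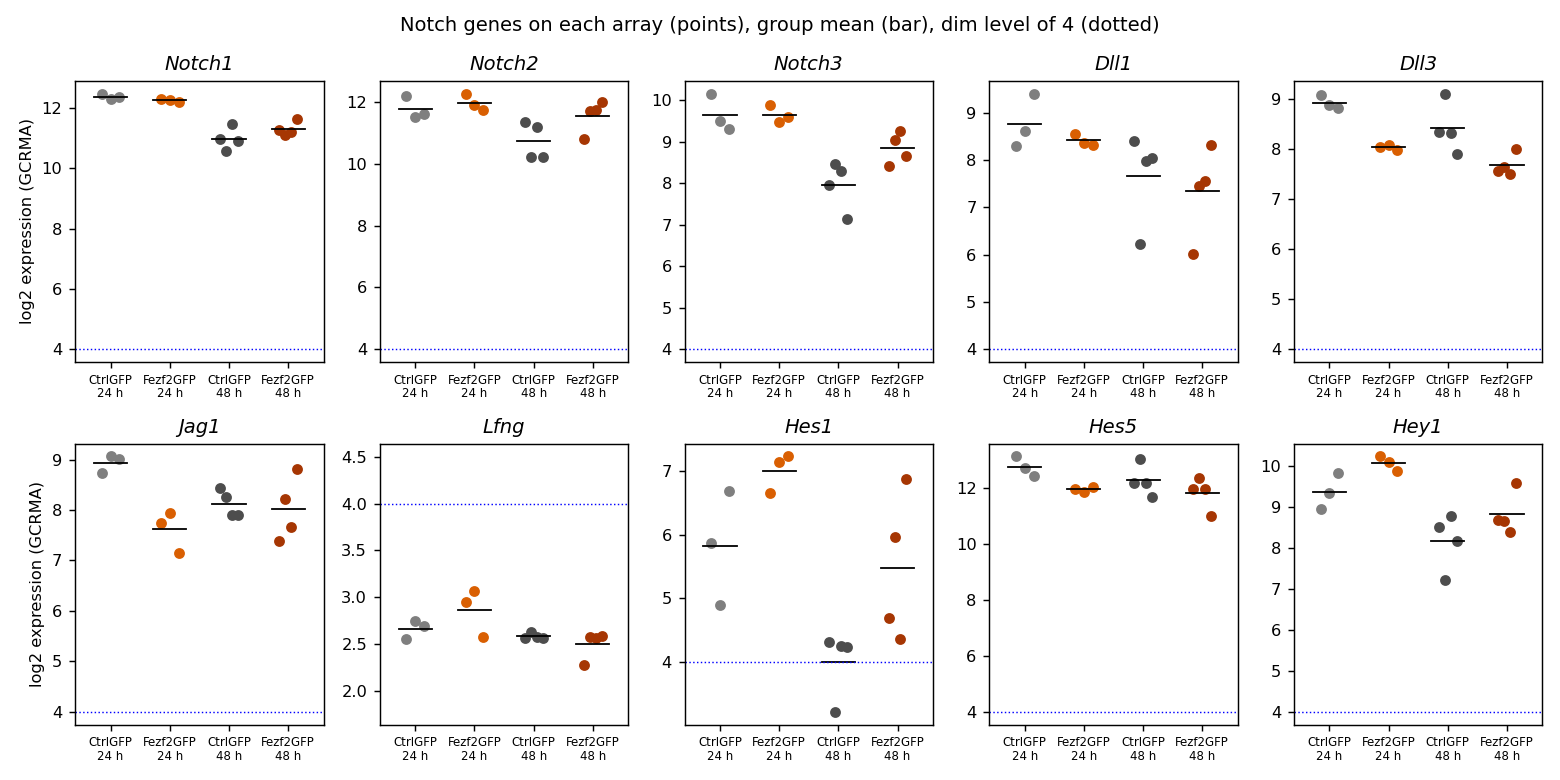
Log2 expression of the 10 Notch genes (y axis, a separate range for each gene) on each of the 14 arrays, by group (x axis), with a bar at each group mean and a dotted line at the dim level of 4. Notch1, Notch3 and Hey1 sit lower at 48 h than at 24 h in both vectors, Jag1 and Dll3 sit lower with Fezf2GFP at 24 h, and Lfng stays under the dotted line on every array.

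Array medians over all probe sets ranged from 3.26 to 3.50, and arrays of one group correlated at 0.942 to 0.993 over the 10295 genes tested. CtrlGFP at 24 h replicate 1 and CtrlGFP at 48 h replicate 2 had the highest medians, 3.50 and 3.45, and their deviations from their group means correlated at 0.593. The first of them also had the highest log2 summed signal of 4 erythroid markers, 13.78 against 5.30 and 5.01 in the rest of its group. Fezf2GFP at 24 h replicate 3 had 9.98 against 5.35 and 4.32, and the 48 h arrays had 4.32 to 6.06. Of these markers Hba-a1, Alas2 and Hemgn lay below the dim level of 4 on all 14 arrays, and the part of erythroid cells in the values below was not tested. Fits without the 2 arrays with the highest medians, called below the arrays that stand apart, are given for some values that depend on them. The vector's own gene went against the labels: Fezf2 read 10.82, 11.54 and 11.54 on the CtrlGFP arrays at 24 h and 9.31, 9.50 and 9.52 on the arrays labelled Fezf2GFP. Its log2 fold change was -1.86 at 24 h (SE 0.38, adjusted p = 0.0324 by limma) and -0.82 at 48 h (SE 0.33, adjusted p = 0.239). The call at 24 h was lost without CtrlGFP at 24 h replicate 2 or 3 and without any 1 of the 3 Fezf2GFP arrays at 24 h, with adjusted p up to 0.157. It was also lost with no filter on dim probe sets (adjusted p = 0.0883), with the replicate number as a block (0.0750), with median centring (0.0619) and with the median over the probe sets of each gene (0.0585). Whether the vector carries the stretch of Fezf2 that its single probe set reads is not stated in the labels, so every direction below rests on the labels of the arrays labelled Fezf2GFP. The labels call the sorted cells cortical progenitors, and 10 of 10 radial glia markers and 8 of 8 intermediate progenitor markers lay above the dim level on enough arrays to be tested. So did 8 of 8 neuron markers and 7 of 8 interneuron markers, so passing this filter does not single out progenitors.

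Notch1 encodes the receptor most studied in cortical radial glia. On the 24 h arrays it read 12.47, 12.31 and 12.36 with CtrlGFP and 12.30, 12.27 and 12.19 with Fezf2GFP. On the 48 h arrays it read 10.98, 10.58, 11.47 and 10.90 with CtrlGFP and 11.28, 11.11, 11.19 and 11.63 with Fezf2GFP. Every 48 h array lay below every 24 h array. In CtrlGFP the mean went from 12.38 ± 0.08 (SD, n = 3) to 10.98 ± 0.37 (SD, n = 4), which is 2.63-fold lower (log2 fold change -1.39, SE 0.20, adjusted p = 6.24e-04 by limma). In Fezf2GFP it went from 12.25 ± 0.06 (SD, n = 3) to 11.30 ± 0.23 (SD, n = 4), which is 1.93-fold lower (log2 fold change -0.95, SE 0.20, adjusted p = 0.00702 by limma). Both calls passed under all 26 alternative settings, those without any 1 array included. The 24 h arrays of the vectors did not overlap, yet their means differed by only 0.12 (SE 0.21, adjusted p = 0.862 by limma). A second Notch1 probe set lay below the dim level on all 14 arrays.

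Notch2, a receptor that is also present in radial glia, read 12.21, 11.52 and 11.64 with CtrlGFP and 12.28, 11.92 and 11.75 with Fezf2GFP at 24 h. The 48 h arrays gave 11.35, 10.22, 11.21 and 10.22 with CtrlGFP and 10.80, 11.72, 11.75 and 12.03 with Fezf2GFP. The 4 CtrlGFP arrays at 48 h lay below the CtrlGFP arrays at 24 h, while 3 of the 4 Fezf2GFP arrays at 48 h lay inside the range of the 24 h arrays. The log2 fold change with time was -1.04 in CtrlGFP (SE 0.35, adjusted p = 0.0702 by limma) and -0.41 in Fezf2GFP (SE 0.35, adjusted p = 0.538), and neither passed. Without CtrlGFP at 48 h replicate 1 or without Fezf2GFP at 48 h replicate 1 the CtrlGFP value passed, with adjusted p down to 0.0414. Between the vectors at 48 h the log2 fold change was 0.82 (SE 0.32, adjusted p = 0.224 by limma).

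Notch3 encodes a receptor of neural progenitors that is also a defining gene of the mural cells of blood vessels. It read 10.16, 9.51 and 9.31 with CtrlGFP and 9.89, 9.48 and 9.61 with Fezf2GFP at 24 h. By 48 h its values were 7.95, 8.47, 8.29 and 7.15 with CtrlGFP and 8.41, 9.04, 9.27 and 8.67 with Fezf2GFP, so that no 48 h array reached a 24 h array. In CtrlGFP it fell 3.24-fold (log2 fold change -1.69, SE 0.32, adjusted p = 0.00338 by limma), from 9.66 ± 0.45 (SD, n = 3) to 7.97 ± 0.58 (SD, n = 4), and the call passed under all 26 alternatives. The smallest of these changes, -0.85, came from averaging with its dim second probe set. In Fezf2GFP the log2 fold change with time was -0.81 (SE 0.32, adjusted p = 0.125 by limma). The arrays of the 2 vectors overlapped at 48 h, with a log2 fold change of 0.88 (SE 0.29, adjusted p = 0.144 by limma), and at 24 h both means were 9.66. Of 8 mural markers, 5 (Abcc9, Acta2, Vtn, Anpep and Higd1b) lay below the dim level on all 14 arrays, 2 were tested and 0 passed in any comparison. The log2 of the summed signal of the mural list ranged from 7.49 to 9.04 in CtrlGFP at 24 h, from 7.30 to 10.24 in Fezf2GFP at 24 h, from 7.95 to 9.44 in CtrlGFP at 48 h and from 8.89 to 10.16 in Fezf2GFP at 48 h. The part of mural cells in the values of Notch3 was not tested.

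The ligand genes were tested as Dll1, Dll3 and Jag1. All 3 hold the letters CAGCTG, an E-box of the kind that proneural factors bind, within the 250 bases before a RefSeq start site (GRCm38.p6). These stretches are shown because proneural factors are known to act on Delta genes. A further reason is that 3 of 4 tested proneural genes passed as lower at 48 h in these arrays. Over 32851 promoter windows of this length, 13.0% hold the palindrome CAGCTG, 14.4% hold CAGATG on either strand, and no ligand window holds CAGATG. The first capital lies 82 bases before the start in Jag1, 7 in Dll3 and 132 in the second of 2 listed Dll1 entries, and the first Dll1 entry holds neither motif. Lfng, which is not a ligand, also holds CAGCTG, with its first base 146 bases before the start. Each line gives the sequence 5′ to 3′ on the gene's strand, with the E-box in capitals, from chr2:137116567-137116632 for Jag1, chr7:28301786-28301822 for Dll3 and chr17:15377029-15377094 for Dll1, all on the minus strand. A match is a description of the letters and not evidence of binding.
Jag1: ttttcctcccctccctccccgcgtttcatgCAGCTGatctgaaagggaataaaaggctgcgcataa
Dll3: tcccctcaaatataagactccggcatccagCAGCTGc
Dll1: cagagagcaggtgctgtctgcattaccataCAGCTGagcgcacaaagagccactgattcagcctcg

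Jag1 encodes a ligand of the Jagged type. At 24 h it read 8.74, 9.06 and 9.01 with CtrlGFP and 7.75, 7.95 and 7.15 with Fezf2GFP. Its 48 h values were 8.43, 8.25, 7.91 and 7.90 with CtrlGFP and 7.38, 8.22, 7.66 and 8.81 with Fezf2GFP. The vectors were fully apart at 24 h and interleaved at 48 h. The log2 fold change of Fezf2GFP against CtrlGFP was -1.32 at 24 h (SE 0.33, 95% interval -2.03 to -0.62, adjusted p = 0.0842 by limma), 2.50-fold lower, and -0.11 at 48 h (SE 0.28, adjusted p = 0.906). The difference between these effects, 1.21 (SE 0.43), had an unadjusted p of 0.0147 and an adjusted p of 0.828, so the effects were not shown to differ. The 24 h value passed in 4 of 26 alternatives, among them the fit without Fezf2GFP at 48 h replicate 4 (adjusted p = 0.0321 by limma), which is the array with the highest 48 h value of that vector. With time, the log2 fold change was -0.82 in CtrlGFP (SE 0.31, adjusted p = 0.107) and 0.40 in Fezf2GFP (SE 0.31, adjusted p = 0.489). Without that same array the CtrlGFP value passed, at adjusted p = 0.0469. A second, dimmer Jag1 probe set read 3.91 to 5.93 over the 14 arrays, overlapped between the vectors at 24 h, and had a log2 fold change there of -0.50 (SE 0.40, adjusted p = 0.781 by limma).

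Dll3 encodes a Delta protein that acts within the cell and dampens Notch signalling. At 24 h it read 9.08, 8.88 and 8.83 with CtrlGFP and 8.04, 8.08 and 7.99 with Fezf2GFP. At 48 h it read 8.34, 9.11, 8.33 and 7.90 with CtrlGFP and 7.56, 7.65, 7.51 and 8.01 with Fezf2GFP. The groups were apart at 24 h, and at 48 h a single Fezf2GFP array reached into the CtrlGFP range. The log2 fold change was -0.90 at 24 h (SE 0.25, adjusted p = 0.145 by limma) and -0.74 at 48 h (SE 0.22, adjusted p = 0.0927), and neither passed. At 24 h the value passed without CtrlGFP at 48 h replicate 2 (adjusted p = 0.0266), one of the arrays that stand apart and the highest of its group for Dll3. At 48 h it passed without CtrlGFP at 48 h replicate 4 (adjusted p = 0.0480), the lowest of its group. With time the log2 fold changes were -0.51 in CtrlGFP (SE 0.23, adjusted p = 0.202) and -0.35 in Fezf2GFP (SE 0.23, adjusted p = 0.405). The first passed without CtrlGFP at 48 h replicate 2 (adjusted p = 0.0147) and without both arrays that stand apart (adjusted p = 0.0440 by limma).

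Dll1 encodes the main activating Delta ligand of newborn neurons and intermediate progenitors. It read 8.29, 8.62 and 9.40 with CtrlGFP and 8.56, 8.37 and 8.32 with Fezf2GFP at 24 h. The 48 h arrays gave 8.40, 6.23, 7.98 and 8.04 with CtrlGFP and 6.02, 7.44, 7.56 and 8.32 with Fezf2GFP, so 1 array of each 48 h group lay far below the others. The log2 fold change between the vectors was -0.35 at 24 h (SE 0.58, adjusted p = 0.859 by limma) and -0.33 at 48 h (SE 0.50, adjusted p = 0.821). Its standard errors were the largest of the ligand genes, and with time the values of -1.10 in CtrlGFP (SE 0.54, adjusted p = 0.244) and -1.08 in Fezf2GFP (SE 0.54, adjusted p = 0.249) did not pass.

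Lfng encodes Lunatic fringe, an enzyme that adds sugars to Notch receptors and so changes which ligands they answer to. Both of its probe sets lay below the dim level on all 14 arrays, with 2.28 to 3.07 for the brighter, so it was not tested, and no change in it could be measured here. Its promoter window holds 1 match to GTGGGAA, the core letters that RBPJ binds, with the first base 109 before the start.

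The target genes Hes1, Hes5 and Hey1 encode repressors of the basic helix-loop-helix class. Of the 10 members, 8 were found in the RefSeq promoter table, as 9 entries, and Hes1 and Hey1 were not matched. Hes5 holds 2 matches to GTGGGAA, on opposite strands, beginning 226 and 83 bases before the start. These are shown because Hes genes are known targets of Notch and RBPJ. Whether the 2 matches act as a pair was not tested. Over 32851 windows, 5.42% hold at least 1 match on either strand and 0.161% hold 2 or more. The windows of Notch1, Notch2, Notch3, Dll1, Dll3 and Jag1 hold none, which says only that these letters are not there. The N-box CACNAG, which Hes repressors bind, occurs in 36.7% of all windows on either strand, and among the members in Notch1, Notch2, Notch3 and Lfng. The windows below are the 250 bases before the start, 5′ to 3′, with GTGGGAA or its reverse complement in capitals, from chr4:154960673-154960922 for Hes5 and chr5:140607091-140607340 for Lfng, both on the plus strand of GRCm38.p6.
Hes5: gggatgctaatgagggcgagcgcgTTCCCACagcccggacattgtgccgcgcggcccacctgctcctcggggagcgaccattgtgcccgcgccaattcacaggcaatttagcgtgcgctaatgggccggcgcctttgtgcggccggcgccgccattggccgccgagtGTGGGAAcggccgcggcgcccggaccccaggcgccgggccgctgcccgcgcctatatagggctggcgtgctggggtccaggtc
Lfng: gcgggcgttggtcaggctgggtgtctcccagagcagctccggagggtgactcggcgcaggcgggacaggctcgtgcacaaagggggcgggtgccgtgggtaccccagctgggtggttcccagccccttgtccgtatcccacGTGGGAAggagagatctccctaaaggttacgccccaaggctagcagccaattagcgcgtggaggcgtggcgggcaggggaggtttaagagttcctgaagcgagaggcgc

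Hes5 read 13.13, 12.73 and 12.44 with CtrlGFP and 11.97, 11.87 and 12.05 with Fezf2GFP at 24 h. By 48 h its values were 12.20, 13.03, 12.20 and 11.69 with CtrlGFP and 11.97, 12.37, 11.96 and 10.99 with Fezf2GFP. The vectors were apart at 24 h and overlapped at 48 h. The log2 fold change was -0.80 at 24 h (SE 0.36, adjusted p = 0.529 by limma) and -0.46 at 48 h (SE 0.31, adjusted p = 0.554). A second, dimmer Hes5 probe set read 8.51, 7.49 and 7.10 with CtrlGFP and 6.21, 6.23 and 6.51 with Fezf2GFP at 24 h, again apart, and 5.40 to 6.84 over the 8 arrays at 48 h. In a fit of all probe sets its 24 h log2 fold change was -1.38 (SE 0.40, adjusted p = 0.234 by limma). With time in CtrlGFP, in that same fit of all probe sets, the dimmer one had a log2 fold change of -1.33 and passed (SE 0.38, adjusted p = 0.0443 by limma), whereas the brighter one had -0.49 (SE 0.34, adjusted p = 0.479), and the difference between them was not tested.

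Hes1 read 5.87, 4.89 and 6.69 with CtrlGFP and 6.66, 7.14 and 7.23 with Fezf2GFP at 24 h. Its 48 h values were 4.31, 3.22, 4.25 and 4.24 with CtrlGFP and 4.70, 5.96, 4.36 and 6.88 with Fezf2GFP, where 1 of the 4 CtrlGFP arrays lay below the dim level. At 48 h all 4 Fezf2GFP arrays lay above all 4 CtrlGFP arrays, with the nearest pair at 4.36 and 4.31. The log2 fold change of Fezf2GFP against CtrlGFP was 1.19 at 24 h (SE 0.60, adjusted p = 0.624 by limma) and 1.47 at 48 h (SE 0.52, 2.77-fold, adjusted p = 0.173), and neither passed. With time it was -1.81 in CtrlGFP (SE 0.56, adjusted p = 0.0506), just short of passing, and -1.53 in Fezf2GFP (SE 0.56, adjusted p = 0.102). The CtrlGFP value passed in 8 of 26 alternatives, among them those without CtrlGFP at 24 h replicate 2 and without Fezf2GFP at 48 h replicate 1, 3 or 4 (adjusted p down to 0.0223). With the replicate number as a block it passed at adjusted p = 0.0414. The Fezf2GFP value passed without Fezf2GFP at 48 h replicate 4 (adjusted p = 0.0193).

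Hey1 read 8.94, 9.33 and 9.82 with CtrlGFP and 10.22, 10.09 and 9.87 with Fezf2GFP at 24 h. At 48 h it read 8.51, 7.21, 8.76 and 8.16 with CtrlGFP and 8.67, 8.64, 8.37 and 9.57 with Fezf2GFP. With each vector every 48 h array lay below every 24 h array. On the log2 scale it fell by 1.20 in CtrlGFP (SE 0.36, 2.30-fold lower, adjusted p = 0.0459 by limma) and by 1.25 in Fezf2GFP (SE 0.36, 2.38-fold lower, adjusted p = 0.0405 by limma). Both calls sat near the threshold: the CtrlGFP call passed in 8 and the Fezf2GFP call in 15 of 26 alternatives. Of the 14 fits without 1 array, the CtrlGFP call held in 3, those without CtrlGFP at 24 h replicate 1, CtrlGFP at 48 h replicate 3 or Fezf2GFP at 48 h replicate 4, and was lost in the other 11 (adjusted p up to 0.172). The Fezf2GFP call was lost in 8, those without CtrlGFP at 24 h replicate 2, CtrlGFP at 48 h replicate 4, Fezf2GFP at 24 h replicate 1, 2 or 3, or Fezf2GFP at 48 h replicate 1, 2 or 3 (adjusted p up to 0.124). With the replicate number as a block the CtrlGFP call was lost (adjusted p = 0.0516). Without both arrays that stand apart it was lost as well (adjusted p = 0.0519). Between the vectors the 24 h arrays did not overlap, with a log2 fold change of 0.70 (SE 0.39, adjusted p = 0.675 by limma), and at 48 h it was 0.65 (SE 0.34, adjusted p = 0.396).

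As a group, the members were compared between the vectors at each time to ask whether Notch genes differ between Fezf2GFP and CtrlGFP cells. At 24 h, 0 of 9 tested members passed limma's test at an adjusted p under 0.05, against 1.06% of 10295 genes, and 3 had an unadjusted p under 0.05, as did 911 of the 10295 genes. The groups' arrays did not overlap for 5 of 9 members: Notch1, Dll3, Jag1 and Hes5 were lower with Fezf2GFP and Hey1 was higher, against 19.6% of all genes tested in either direction. The median log2 fold change of the 9 was -0.12, beside 0.06 over all genes. At 48 h, 0 of 9 passed, against 3.13% of genes, and 4 had an unadjusted p under 0.05, as did 1569 of all genes. Of these 4 Hes1 was higher without overlap, against 7.35% of genes. The median was 0.32, beside 0.06 over all genes. In the test of the difference between the 48 h and 24 h effects, 0 of 9 passed, against 0.0971% of genes, and 1, Jag1, had an unadjusted p under 0.05, as did 509 of all genes. The vector comparisons at 24 h and 48 h share no arrays, though they share one estimate of the spread. Dll1, Dll3, Jag1 and Hes5 had negative values at both times, and Notch2, Hes1 and Hey1 had positive values at both times. The share of all genes that keep their sign was not counted. The 48 h signs of Dll1 and Jag1 turned in fits without 1 array (up to 0.11 and 0.10), and that of Hes5 turned with array weights (0.0006).

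**Figure D2:**
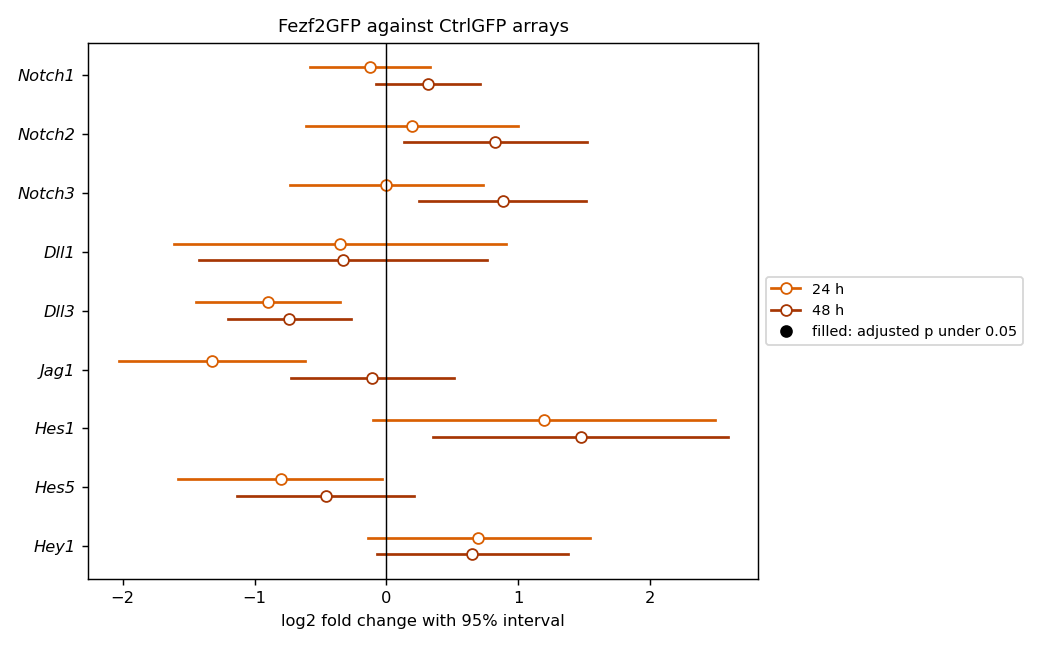
Log2 fold change of the arrays labelled Fezf2GFP against the CtrlGFP arrays (x axis) for the 9 tested members (y axis) at 24 h and 48 h, with 95% intervals that are not adjusted for the number of genes. No point is filled, since none passed at an adjusted p under 0.05, and the interval of Jag1 at 24 h, -2.03 to -0.62, lies farthest from 0 on the negative side.

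Times were compared within each vector to ask how the genes change between 24 h and 48 h after electroporation. In CtrlGFP, 3 of 9 members passed, Notch1, Notch3 and Hey1, all lower at 48 h, against 12.6% of all genes in either direction and 6.69% lower. The arrays of 6 of 9 members were lower without overlap, against 12.8% of genes, and the median log2 fold change was -1.10 beside -0.02 over all genes. In Fezf2GFP, 2 of 9 passed, Notch1 and Hey1, both lower, against 12.1% of genes in either direction and 5.67% lower. The arrays of 3 members were lower without overlap, against 12.9%, and the median was -0.81 beside -0.01. The 9 values were all negative in CtrlGFP, and in Fezf2GFP all but that of Jag1 were. Of all genes tested, 52.3% had values below 0 in CtrlGFP and 51.2% in Fezf2GFP. Whether the fall in CtrlGFP and in Fezf2GFP differs is the difference between the 48 h and 24 h effects given above, in which no member passed.

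**Figure D3:**
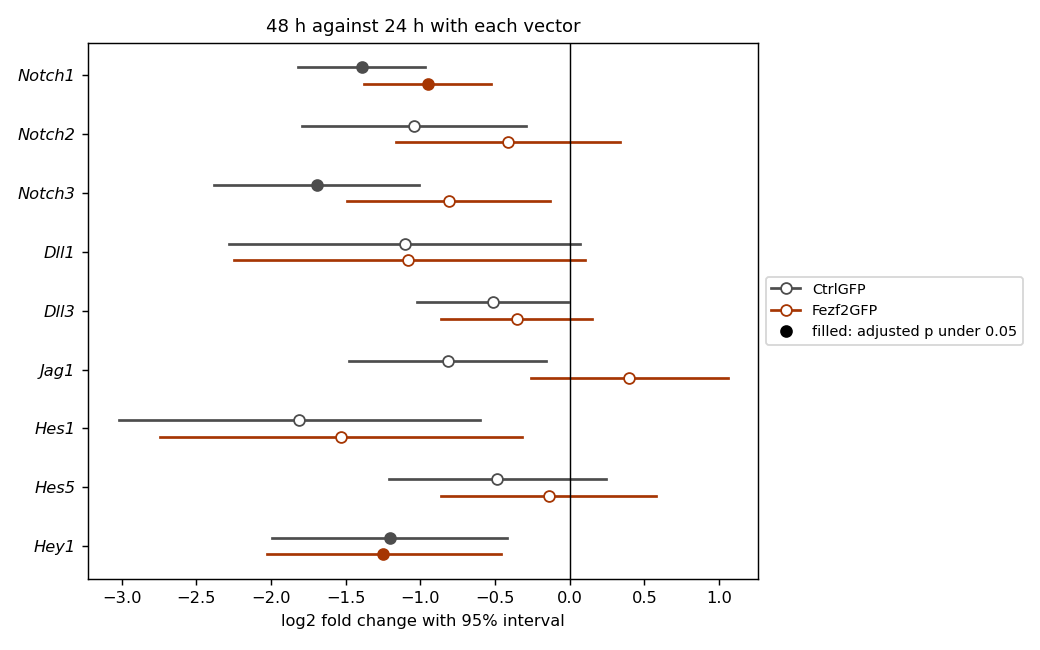
Log2 fold change of 48 h against 24 h (x axis) for the 9 tested members (y axis) in CtrlGFP and in Fezf2GFP, with unadjusted 95% intervals and filled points for an adjusted p under 0.05. The filled points are Notch1 and Hey1 with both vectors and Notch3 with CtrlGFP, all on the negative side.

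The other genes of the pathway were read from a list of 67 symbols, of which 59 were matched on the array and 49 were tested. Between the vectors at 24 h 0 of 49 passed limma's test, with a median log2 fold change of 0.11. At 48 h 3 passed, all higher with Fezf2GFP, against 2.70% of all genes in that direction. Spen, a corepressor that joins RBPJ when Notch is off, read 7.52, 7.72, 7.20 and 7.37 with CtrlGFP and 8.48, 8.11, 8.63 and 8.62 with Fezf2GFP (log2 fold change 1.01, SE 0.22, adjusted p = 0.0259 by limma). Dtx1, a ubiquitin ligase that binds Notch, read 10.78, 11.26, 11.02 and 11.07 with CtrlGFP and 11.67, 11.71, 12.08 and 12.02 with Fezf2GFP (log2 fold change 0.83, SE 0.17, adjusted p = 0.0208 by limma). For both genes the groups were fully apart. With the median over its probe sets Dtx1 did not pass (log2 fold change 0.40, adjusted p = 0.0660 by limma). The third call, Tle2, a Groucho corepressor used by Hes proteins, gives no support: it lay above the dim level on 3 Fezf2GFP arrays at 48 h and on no other array, so it entered the test only through the group where it is high. With no filter on dim probe sets it did not pass (adjusted p = 0.0564 by limma). Each of these 3 calls was lost in 5 of 14 fits without 1 array, with adjusted p up to 0.0784. All 3 were lost without CtrlGFP at 48 h replicate 3, Fezf2GFP at 48 h replicate 3 or Fezf2GFP at 48 h replicate 4. Spen and Dtx1 were also lost without CtrlGFP at 48 h replicate 4, Spen and Tle2 without Fezf2GFP at 48 h replicate 1, Tle2 without CtrlGFP at 48 h replicate 2 and Dtx1 without CtrlGFP at 48 h replicate 1. With the replicate number as a block 1 of the 49 passed at 48 h, and it was Tle2. Spen and Dtx1 did not pass there (adjusted p = 0.0717 and 0.0546 by limma).

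From 24 h to 48 h, 11 of 49 passed in CtrlGFP (3 higher, 8 lower) and 9 of 49 in Fezf2GFP (3 higher, 6 lower), against 12.6% and 12.1% of all genes. Both counts include Tle2 among the higher genes, which lay below the dim level on all 7 CtrlGFP arrays and, in Fezf2GFP, entered the test only through the 48 h arrays. The largest was in Neurog1, one of the proneural genes, which Hes repressors restrain. It read 9.97 to 10.39 with CtrlGFP and 9.95 to 10.76 with Fezf2GFP at 24 h, and 5.57 to 7.80 and 5.91 to 7.35 at 48 h. Neurog1 fell by 3.50 in CtrlGFP (adjusted p = 3.71e-04 by limma) and by 3.87 in Fezf2GFP (adjusted p = 2.56e-04 by limma) on the log2 scale. Neurod4 fell by 1.81 and 2.69 and Neurog2 by 0.92 and 1.17, so that 3 of the 4 tested proneural genes passed with each vector. Among regulators, Nrarp, a Notch target that feeds back on the receptor, fell by 1.14 in CtrlGFP and 1.15 in Fezf2GFP. Numb, an inhibitor of Notch, fell by 0.48 in CtrlGFP, and Dtx1 rose by 0.94 and 1.40. Of the Fringe and endocytosis genes only Mfng, a Fringe enzyme, passed, with falls of 1.23 and 1.12. Of the receptor-processing genes Pofut1, which adds fucose to Notch, fell by 0.81 in CtrlGFP, but with the median over its probe sets the value was -0.02 (adjusted p = 0.937 by limma). Of the nuclear genes Hdac1, a histone deacetylase, fell by 0.52 and 0.61, and Spen rose by 0.81 in Fezf2GFP. Of the other receptors and ligands Dner, a Delta-related protein of neurons, rose by 1.43 in CtrlGFP. With the median over their probe sets Neurod4 and Dner did not pass in CtrlGFP (adjusted p = 0.0828 and 0.111 by limma). By that median Neurog1 fell by 1.75 and 1.94 and Dtx1 rose by 0.45 and 0.69 in CtrlGFP and Fezf2GFP, Numb fell by 0.27 in CtrlGFP and Neurod4 fell by 4.07 in Fezf2GFP, and these calls held.

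Of all 23 calls in these pathway genes, among them 3 of Tle2, 8 held without any 1 array. These 8 were Dtx1, Neurog1 and Neurod4 with both vectors, and Neurog2 and Tle2 in Fezf2GFP. Tle2 gives no support here either, since it entered the test only through the Fezf2GFP arrays at 48 h. The other 15 were lost without at least 1 array, with adjusted p up to 0.195. In CtrlGFP with time, Mfng was lost without CtrlGFP at 24 h replicate 2, and Dner without CtrlGFP at 24 h replicate 1 or CtrlGFP at 48 h replicate 1. Numb, Nrarp and Neurog2 were each lost without CtrlGFP at 24 h replicate 2 or 3, and further without CtrlGFP at 48 h replicate 3 or 4 (Numb), 1 or 4 (Nrarp) and 2 or 4 (Neurog2). Pofut1, Tle2 and Hdac1 were lost in 8, 9 and 11 of the 14 fits without 1 array. In Fezf2GFP with time, Mfng and Nrarp were lost without any 1 of the 3 Fezf2GFP arrays at 24 h, and further without Fezf2GFP at 48 h replicate 2 or 3 (Mfng) and 1 or 2 (Nrarp). Hdac1 was lost without Fezf2GFP at 24 h replicate 2 or 3 or Fezf2GFP at 48 h replicate 1 or 3, and Spen in 10 of the 14 fits. Neither of the 2 tested genes of the Hes and Hey family outside the members passed in any comparison. Of these, Hes6, which opposes Hes1, had the lower p at 48 h, with a log2 fold change of -0.27 between the vectors (SE 0.17, adjusted p = 0.527 by limma). Below the dim level on too many arrays to be tested were Dll4, Dlk1, Neurl1a, Ncstn, Maml2, Nle1, Hes3, Hes7, Heyl and Atoh1. The other 8 symbols of the list were not analysed here.

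**Figure D4:**
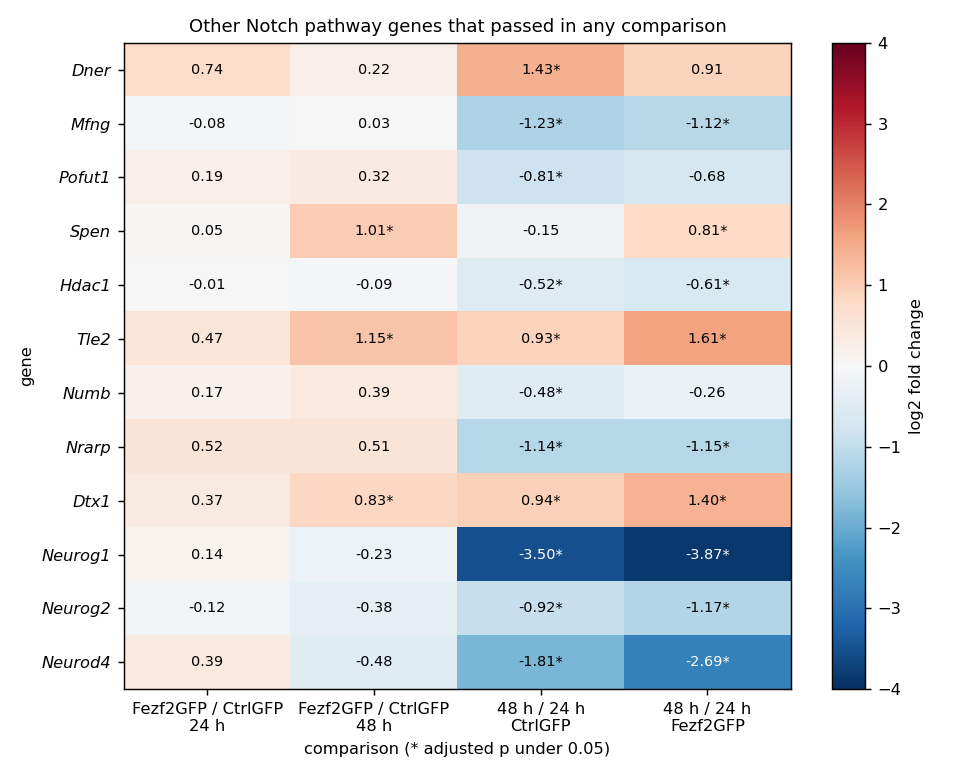
Log2 fold change (colour and printed value) in 4 comparisons (x axis) for the 12 pathway genes outside the members that passed in at least 1 comparison (y axis), with a star at an adjusted p under 0.05. Neurog1 shows the deepest falls with time, -3.50 and -3.87, and only Spen, Tle2 and Dtx1 carry a star between the vectors, where Tle2 was above the dim level on 3 Fezf2GFP arrays at 48 h alone.

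Markers of the cell types in the sort moved with time beside the Notch genes. Of 10 radial glia markers, 5 passed as lower at 48 h in CtrlGFP and 0 passed in Fezf2GFP, with medians of -0.91 and -0.46. Of all genes, 6.69% passed as lower in CtrlGFP and 5.67% in Fezf2GFP. Values below 0 were found for 9 and 8 of the 10 radial glia markers, beside 52.3% and 51.2% of all genes. The log2 of the summed signal of these markers ranged from 16.51 to 16.60 in CtrlGFP and from 16.51 to 16.69 in Fezf2GFP at 24 h. At 48 h it ranged from 15.82 to 16.26 and from 16.07 to 16.62. Of 9 tested markers of dividing cells, 6 passed as lower in CtrlGFP and 5 in Fezf2GFP, with medians of -1.57 and -1.59. All 9 had values below 0 with each vector. Their summed signal ranged from 16.16 to 16.30 in CtrlGFP and from 15.99 to 16.35 in Fezf2GFP at 24 h, and from 14.92 to 15.56 and from 14.75 to 15.22 at 48 h. Of 8 markers of intermediate progenitors, a list that also holds Mfng, Neurog2 and Neurod4, 6 passed as lower in CtrlGFP and 5 in Fezf2GFP. Of 8 neuron markers, 4 passed as higher with each vector, where 12.6% of all genes in CtrlGFP and 12.1% in Fezf2GFP passed in either direction. The summed signal of the neuron markers ranged from 15.66 to 16.10 and from 16.15 to 16.22 at 24 h. At 48 h it ranged from 16.31 to 16.74 and from 16.57 to 16.86. The part of these cell types in the falls of Notch1, Notch3 and Hey1 was not tested.

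Between the vectors, 0 markers of radial glia, intermediate progenitors, neurons or dividing cells passed at 24 h, against 1.06% of all genes. At 48 h 2 of 10 radial glia markers (Nes and Aldoc) passed as higher with Fezf2GFP, against 2.70% of all genes in that direction. Of 8 markers of intermediate progenitors 1 (Gadd45g) passed as lower, where 3.13% of all genes passed in either direction. Of 8 endothelial markers, cells in which Jag1 and Hey1 are also used, 6 lay below the dim level on all 14 arrays (Pecam1, Cdh5, Kdr, Tek, Flt1 and Tie1) and 0 of the 2 tested passed. Of 8 microglia markers 7 lay below it on all 14 arrays, as did 6 of 6 markers of meningeal fibroblasts. Of the lists with few tested genes, Calb2 of the Cajal-Retzius list was higher with Fezf2GFP at 48 h and rose with time in Fezf2GFP, and Olig1 and Olig2 rose with time in CtrlGFP. The log2 summed signal of the Cajal-Retzius list was apart between the vectors: 9.02 to 10.38 with CtrlGFP and 10.44 to 11.12 with Fezf2GFP at 24 h, and 7.35 to 10.05 and 10.86 to 11.94 at 48 h, with Trp73, Lhx1 and Lhx5 below the dim level on all 14 arrays. Of 7 tested interneuron markers all 7 had values above 0 between the vectors at 24 h, with a median of 1.25. In that comparison 43.6% of all genes had values below 0. Of the 7 interneuron markers 0 passed in any comparison, as did 0 of the 1 tested erythroid marker. The mean log2 summed signal of the interneuron list was 7.28 with CtrlGFP and 8.88 with Fezf2GFP at 24 h, and 8.91 and 9.59 at 48 h, with arrays that overlapped at both times. The part of these cell types in the differences between the vectors was not tested.

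**Figure D5:**
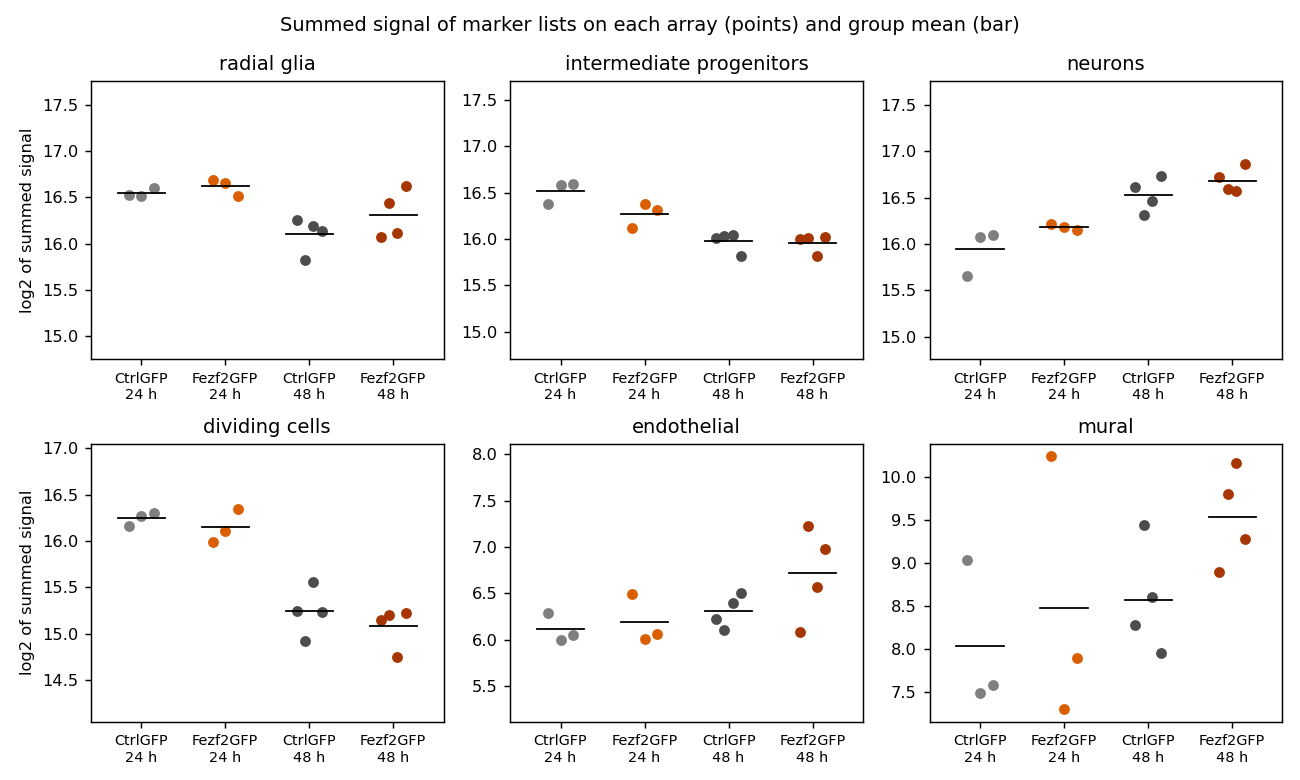
Log2 of the summed signal of 6 marker lists (y axis, a separate range for each list) on each of the 14 arrays by group (x axis), with a bar at each group mean. Dividing cells lie at 15.99 to 16.35 on the 24 h arrays and at 14.75 to 15.56 on the 48 h arrays, without overlap, and radial glia lie lower on most 48 h arrays.

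For each tested member the gene with the most similar pattern was found among all 10295 genes, as the smallest mean absolute difference over the 14 arrays after each gene was centred on its own mean. Notch1 was nearest to Timeless, a gene of DNA replication and its checkpoint (0.127 on the log2 scale), Notch2 to Col12a1 (0.155) and Notch3 to the integrin gene Itgav (0.207). Dll1 was nearest to Tex30 (0.253), Dll3 to Fancf (0.221) and Jag1 to the histone deacetylase gene Hdac9 (0.244). Hes5 was nearest to Ppt2 (0.136), Hey1 to the phosphatase gene Dusp16 (0.170) and Hes1 to Fgfr3, a receptor for fibroblast growth factors in progenitors (0.419). For none of the 9 was another member the nearest gene. Each member's own mean absolute deviation from its mean ran from 0.399 (Hes5) to 1.175 (Hes1), with 0.450 for Dll3 and 0.487 for Jag1. The nearest gene is thus not always a close match. The distances are descriptions over 14 arrays that share groups and normalization.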

How the data were processed

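The authors deposited log2 expression values made with GCRMA (version and settings not stated), per the submitters' processing notes. Amplification of the RNA took 2 rounds, per the labels' protocols. Platform annotation paired 34945 of 45037 probe sets with 1 symbol, 932 with several and 9160 with none, and 0 symbols changed when checked through Entrez IDs against RefSeq (GRCm38.p6). Each gene was represented by its brightest probe set and tested if that lay above a dim level of 4 (log2) on at least 3 of 14 arrays, which left 10295 genes and set aside 7898. The dim level is a limit chosen here. A model with 1 mean for each group, over the 14 arrays together, was fitted in limma 3.58.1 (lmFit, eBayes; R 4.3.3), with Benjamini-Hochberg adjustment over all genes tested and a threshold of 0.05. The script was tested on simulated data. Intervals are 95% and unadjusted. The members and lists were chosen with earlier results of these data known. Named were all members, pathway genes that passed in any comparison, the smallest p of a role with none, and each member's nearest gene. Promoter windows are the 250 bases before each RefSeq start. The number of arrays and, for dim genes, signal over background limit precision. Alternatives were 12 other settings and the omission of each array.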

Additional observations from a re-analysis of the deposited data

Results flagged for a closer look

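Within the groups of 4 arrays, the lowest and highest values of each member were checked for a gap to the nearest array that exceeds Dixon's 95% critical value, which chance passes in about 1 of 20 groups, and 2 of 20 did. Hes1 in CtrlGFP at 48 h had 1 array far below the others: replicate 2 read 3.22, below the dim level, with the nearest array at 4.24. That array is one of the 2 that stand apart, and without both of them the log2 fold change of Hes1 between the vectors at 48 h was 1.21, against 1.47 with them. Lfng in Fezf2GFP at 48 h had replicate 1 at 2.28, with the nearest at 2.56, all below the dim level, where differences carry no measured level.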

How the results depend on the processing

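Over 26 alternatives, the time calls of Notch1 (both vectors) and Notch3 (CtrlGFP) passed in all 26, and for the difference between the 48 h and 24 h effects 0 members passed in all 26. With array weights, a fit that stopped before it converged and called 2030 genes at 24 h against 109, 5 members passed at 24 h, 2 at 48 h, 7 with time in CtrlGFP and 5 in Fezf2GFP, against 0, 0, 3 and 2; the cause was not tested. At 24 h 1 passed with quantile normalization and 1 with the trend on gene span removed (Jag1, adjusted p = 0.0474 and 0.0448). With time in Fezf2GFP 1 passed with no filter, with median centring and with the median over probe sets, each without Hey1. Without 1 array the counts ran from 0 to 1 at 24 h, 0 to 1 at 48 h, 2 to 5 with time in CtrlGFP and 1 to 3 in Fezf2GFP. The replicate block gave 0, 0, 0, 3 and 2 members in the 5 comparisons. Whether a replicate number marks paired samples is not stated in the labels. Between the vectors, correlations of same-numbered deviations ran from -0.006 to 0.318 at 24 h and from -0.056 to 0.286 at 48 h. Between times they ran from -0.399 to 0.193 in CtrlGFP and from -0.213 to -0.102 in Fezf2GFP. These values do not settle whether the arrays are paired.

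Signs turned only in values that did not pass. For Notch3 at 24 h (-0.00) they were 0.072 with median centring, 0.069 with array weights, 0.25 without the 2 arrays that stand apart, and -0.18 to 0.25 without 1 array. For Hes5 they were 0.0006 at 48 h with array weights and, with time in Fezf2GFP, 0.16 with array weights, 0.10 with the block and -0.32 to 0.14 without 1 array. For Dll1 the difference between the effects was -0.0075 with median centring, -0.27 with array weights, -0.023 with span removed, -0.21 without the 2 arrays and -0.46 to 0.46 without 1 array, and its 48 h effect ran from -0.81 to 0.11. For Hes1 the difference was -0.55 with array weights, -0.011 without the 2 arrays and -0.19 to 0.74 without 1 array. Jag1 with time in Fezf2GFP was -0.061 with the median over probe sets, and its 48 h effect ran from -0.37 to 0.10 without 1 array. The difference ran from -0.014 to 0.39 for Dll3 and from -0.36 to 0.17 for Hey1 without 1 array. The causes were not tested. The other pathway genes that passed ranged from 0 to 7 at 24 h, 0 to 6 at 48 h, 3 to 20 with time in CtrlGFP and 5 to 23 in Fezf2GFP.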
